A study of Mus musculus with 12 samples.

Results

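The genes described here encode the enzymes that cut the extracellular matrix and cell surface proteins, the inhibitors that hold those enzymes back, and the enzymes that crosslink collagen and elastin. They were taken by symbol from the count table, as every Mmp, Timp, Adam and Adamts gene with a number, together with Lox and the numbered Loxl genes. This gave 78 of the 23420 genes in the table, which were 23 Mmp, 4 Timp, 27 Adam, 19 Adamts and 5 Lox or Loxl genes. RNA was sequenced from inguinal white adipose tissue (iWAT), the subcutaneous fat pad in which beige adipocytes form, of male C57BL/6 mice aged 10 weeks, with 3 libraries in each of 4 groups. All mice carried HIF2a loxP/loxP alleles. WT mice had no Cre, and HIF2a AKO mice carried Adipoq-Cre, which is active in adipocytes and not in the other cells of the fat pad, so that Cre and the intended deletion always came together. TN groups were kept at thermoneutrality (30 °C) for 1 week and cold groups at 4 to 6 °C for 3 days, so temperature and the length of the exposure cannot be told apart. The study asked how loss of HIF2α in adipocytes changes beige adipocytes in cold.

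Matrix metalloproteinases (MMPs) are zinc-dependent enzymes that degrade collagens, gelatin, proteoglycans and other matrix proteins, and most are made as inactive precursors. The tissue inhibitors of metalloproteinases (TIMPs) bind the active site of MMPs and of some ADAM and ADAMTS enzymes. ADAMs are mostly membrane-bound and shed growth factors, cytokines and receptors from the cell surface, ADAMTS enzymes are secreted and cut proteoglycans, procollagen and von Willebrand factor, and lysyl oxidases oxidise lysine residues so that collagen and elastin fibres become crosslinked. Turnover of this matrix is known to accompany the growth and remodelling of fat pads.

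Of the 78 genes, 56 passed edgeR's filter on low counts and were tested among 15306 genes. They were 15 Mmp, 4 Timp, 14 Adam, 18 Adamts and all 5 Lox or Loxl genes. Of the 22 that did not pass, Adam7, Adam20, Adam24, Adam25, Adam29, Adam34, Adam39 and Mmp1b had 0 counts in all 12 libraries, where 3 counts would correspond to between 0.0852 and 0.134 CPM (counts scaled to a fixed library total). The rest of the untested genes reached at most 1.69 CPM, which Adam2 had in cold WT replicate 3, and 20 of the 22 stayed under 1 CPM in every library. Values per library are CPM after TMM scaling, which corrects library totals for shifts in composition. The range for 3 counts is given before this scaling. After it, 3 counts were at 0.0764 CPM in TN WT replicate 1 and at 0.145 CPM in cold HIF2a AKO replicate 1.

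The libraries held between 22368316 and 35204631 counts on genes. Epas1, which encodes HIF2α, was at 278 to 430 CPM in TN WT, 289 to 394 CPM in TN HIF2a AKO, 562 to 743 CPM in cold WT and 743 to 986 CPM in cold HIF2a AKO libraries. It was thus not lower in the libraries labelled HIF2a AKO. In cold it was fitted higher in them by 0.40 ± 0.20 on the log2 scale, which did not pass the test (edgeR, adjusted p = 0.9999). The reason was not tested. Counts per gene cannot show whether an exon was deleted, so the genotype is given as labelled. White adipocyte markers (Adipoq, Plin1, Lep, Retn and Cfd) summed to between 8502 and 19746 CPM. Thermogenic markers (Ucp1, Cidea, Elovl3 and Dio2) summed to at most 42.6 CPM in TN and to at least 3103 CPM in cold. In 3 libraries transcripts of other tissues stood out, namely epithelial markers at 185 CPM in TN WT replicate 3 and skeletal muscle markers at 1235 and 958 CPM in TN HIF2a AKO replicate 2 and cold HIF2a AKO replicate 1. In the other libraries these sums stayed at or under 10.3 and 75.1 CPM. Calls that were lost without these 3 libraries are named as such.

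On mouse chromosome 9, 10 Mmp genes lie side by side in the order Mmp7, Mmp20, Mmp27, Mmp8, Mmp10, Mmp1a, Mmp3, Mmp1b, Mmp12 and Mmp13, and AP-1 motifs near the start are a known feature of collagenase and stromelysin genes. The bases just before the annotated starts of Mmp13, Mmp3, Mmp8 and Mmp27 are therefore shown, as members of the row that were tested. Mmp12, also tested, is left out because more than 1 start is listed for it. All are on the plus strand of GRCm38.p6 (RefSeq), at chr9:7272394-7272513 for Mmp13, chr9:7445702-7445821 for Mmp3, chr9:7558309-7558428 for Mmp8 and chr9:7571276-7571395 for Mmp27, with the last base next to the start. Capitals mark TGANTCA, the AP-1 motif on either strand, and TATAAA, the TATA box on the sense strand.
Mmp13: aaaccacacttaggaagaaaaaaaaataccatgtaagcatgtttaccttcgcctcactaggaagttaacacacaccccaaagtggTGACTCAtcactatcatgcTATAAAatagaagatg
Mmp3: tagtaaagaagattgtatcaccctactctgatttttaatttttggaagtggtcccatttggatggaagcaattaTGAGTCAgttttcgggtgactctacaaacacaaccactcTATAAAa
Mmp8: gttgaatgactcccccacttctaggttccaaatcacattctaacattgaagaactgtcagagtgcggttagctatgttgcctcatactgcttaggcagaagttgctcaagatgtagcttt
Mmp27: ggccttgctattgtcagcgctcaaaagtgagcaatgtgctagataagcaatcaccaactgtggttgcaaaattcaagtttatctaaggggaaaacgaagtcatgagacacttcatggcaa
Mmp3 and Mmp13 carry both motifs in this window, and Mmp8 and Mmp27 carry neither.

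RefSeq promoters were matched for 45 of the 78 genes and searched over the 250 bases before the start, with the entry nearest to the GENCODE start used for each gene. Shares of all promoters instead count every entry, so a gene with more than 1 listed start enters more than once. TGANTCA was present in 11 of these 45 promoters (24.4%) and in 6.75% of the 32851 promoters of the table. The 11 were Mmp1a, Mmp1b, Mmp3, Mmp7, Mmp10, Mmp13 and Mmp20 of the chromosome 9 row, and Adam19, Adam20, Adam25 and Adam29. Of these, only Mmp3, Mmp13 and Adam19 passed the filter on low counts, and Mmp1b, Adam20, Adam25 and Adam29 had 0 counts in every library. The share thus comes mostly from genes that were not tested here. TATAAA was present in 22.2% of the members' promoters and in 7.59% of all. Of the members with TATAAA, only Adamts1, Mmp3 and Mmp13 were tested. The cores of the hypoxia response element, searched because HIF2α binds them, were present at shares of 15.6% against 16.6% of all for ACGTG and 40% against 28.2% for GCGTG. The Adamts1 promoter holds 1 GCGTG, 158 bases before the start, as do 18 of the 45 promoters at some position. It is shown because Adamts1 had the smallest p among these genes between genotypes in cold. That difference did not pass the adjusted test (edgeR, adjusted p = 0.9999). It spans chr16:85803114-85803363 on the minus strand, with GCGTG and TATAAA in capitals.
Adamts1: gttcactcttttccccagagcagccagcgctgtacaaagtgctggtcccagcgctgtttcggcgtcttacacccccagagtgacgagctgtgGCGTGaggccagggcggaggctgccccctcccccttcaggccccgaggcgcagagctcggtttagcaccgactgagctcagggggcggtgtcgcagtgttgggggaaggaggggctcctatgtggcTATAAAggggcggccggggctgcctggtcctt
A match of letters in such a window is a description and not a measured binding site.

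Levels between genes were compared as CPM per kilobase of summed exon length, averaged over the 12 libraries. Timp2 was first at 124 CPM per kilobase, ahead of Mmp2, a gelatinase that TIMP2 helps to activate, at 85.9 CPM per kilobase. Loxl1, which acts in elastic fibre assembly, was at 56.7, Mmp3 (stromelysin-1) at 38.8 and Timp3, the inhibitor that stays bound to matrix, at 33.9 CPM per kilobase. These 5 were followed by Adam9, Mmp14, Adam15, Adam10 and Mmp19, at between 28.5 and 15.03 CPM per kilobase. The ranges over libraries of neighbours in this order overlapped throughout, for example 88.7 to 154 for Timp2 and 68.7 to 111 for Mmp2, so single ranks are not resolved. Among the ADAMTS genes, Adamts10 was highest at 14.4 CPM per kilobase, followed by Adamts1 at 10.1 and Adamts5 at 9.87 CPM per kilobase. Timp1, which is low in resting tissue, was at 2.76 CPM per kilobase, and of the collagenases Mmp8 had 22 to 252 and Mmp13 only 2 to 19 raw counts per library.

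Summed by family, levels overlapped between TN and cold, and overlapped least for the crosslinkers. Lox and Loxl genes summed to between 235 and 352 CPM, with a median of 272 CPM, in the 6 TN libraries and to between 349 and 392 CPM, with a median of 374 CPM, in the 6 cold libraries. The Mmp genes summed to between 654 and 906 CPM in TN and between 606 and 764 CPM in cold. The Timp genes summed to between 710 and 936 CPM and between 689 and 888 CPM, and the Adamts genes to between 480 and 623 CPM and between 475 and 552 CPM. For the Adam genes the sums were between 783 and 830 CPM in TN and between 812 and 946 CPM in cold.  All 78 genes together summed to between 3008 and 3647 CPM, with a median of 3257 CPM, in TN and between 3032 and 3329 CPM, with a median of 3273 CPM, in cold. As a raw share of all counts, without TMM scaling, they took between 0.321 and 0.394% in TN and between 0.257 and 0.323% in cold.

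The comparison of cold with TN asks how these genes responded to 3 days of cold. Averaged over both genotypes, 24 of the 56 genes tested changed at an adjusted p under 0.05, against 48.8% of all genes. Of these, 9 rose, where 24.8% of all genes did, and 15 fell, where 24% of all genes did, so the share that rose was below the background and the share that fell was near it. The median log2 fold change was -0.25 over the 56 genes and -0.05 over all genes tested, and 19 of the 56 were fitted higher in cold, against 45.7% of all genes. Within WT mice 4 genes rose, against 15.6% of all, and 5 fell, against 5.68% of all. Within HIF2a AKO mice 4 rose, against 15.6% of all, and 6 fell, against 11.5% of all. In Adam12, Loxl1 and Mmp28 all 6 cold libraries lay above all 6 TN libraries, which 16% of all genes showed, and in Adam10, Adam22, Adamts17 and Mmp3 all 6 lay below, which 8.53% of all genes showed. In a fat pad, fewer cells of a type and less RNA per cell cannot be told apart.

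**Figure D1:**
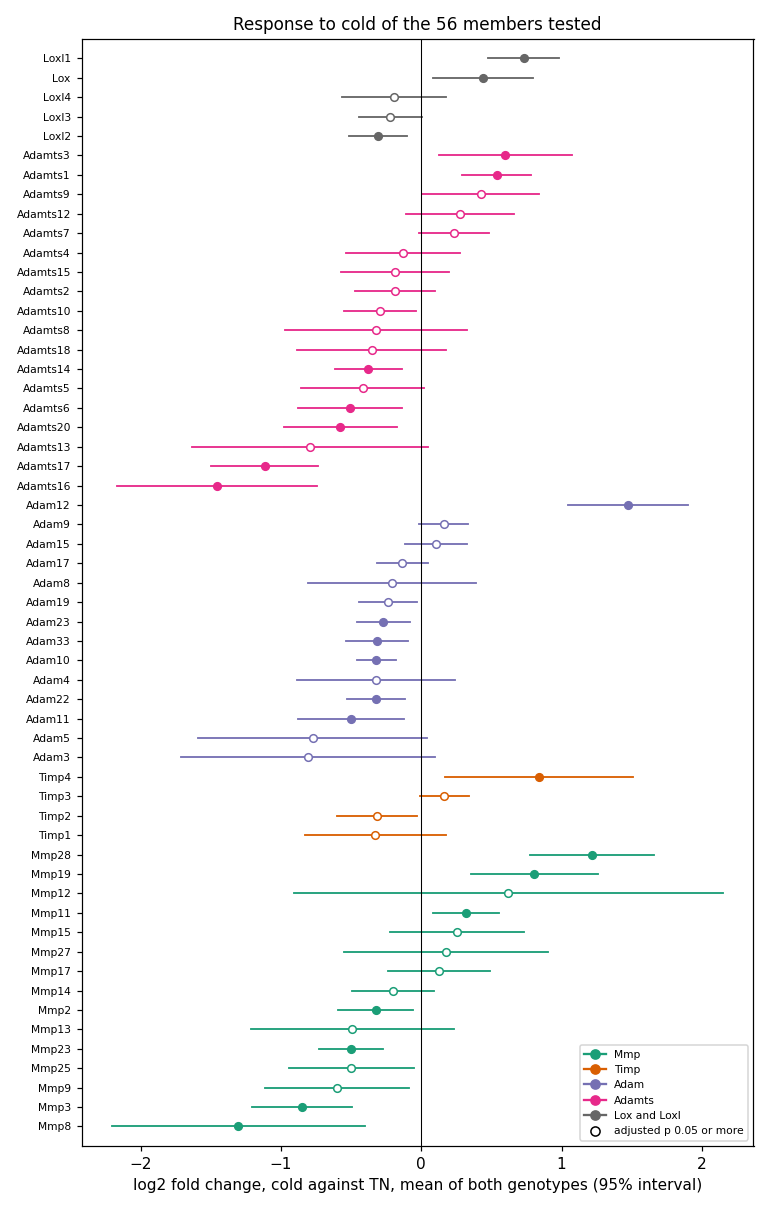
Log2 fold change of each of the 56 genes tested, cold against TN averaged over both genotypes (horizontal axis), with 95% intervals as lines and families in colour. Filled points passed an adjusted p of 0.05. Adam12 and Mmp28 lie farthest to the right, at 1.47 and 1.22, and Adamts16 and Mmp8 farthest to the left, at -1.46 and -1.30.

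Among the metalloproteinases, Mmp28, Mmp19 and Mmp11 rose and Mmp3, Mmp23, Mmp8 and Mmp2 fell in cold when both genotypes were averaged. These were 3 and 4 of the 15 Mmp genes tested, where 24.8% of all genes rose and 24% fell. Mmp28 (epilysin; chr11:83440768-83463071, minus strand) is a secreted MMP found in many tissues. It was at 16.8, 9.36 and 18.8 CPM in TN WT and at 12.5, 25.2 and 22.3 CPM in TN HIF2a AKO libraries. In cold it was at 42.7, 34.5 and 52.4 CPM in WT and at 40.8, 36.4 and 35.8 CPM in HIF2a AKO libraries. All cold values thus lay above all TN values. The log2 fold change was 1.53 ± 0.29 (SE; adjusted p = 0.00498) in WT and 0.91 ± 0.28 (adjusted p = 0.0368) in HIF2a AKO mice, and 1.22 ± 0.20, or 2.33-fold, on average. In HIF2a AKO mice the call was lost when any 1 of 7 of the 12 libraries was left out, without the 3 libraries named above and with a replicate block. Its exons overlap 1700020L24Rik on the opposite strand, whose log2 fold change was 0.98, and because the strand setting of the counting is not given in the sources used here, reads of the overlap cannot be told apart.

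Mmp19, which degrades basement membrane proteins, was at 38.7, 27.2 and 41.2 CPM in TN WT and at 25.7, 58.4 and 39.7 CPM in TN HIF2a AKO libraries. Cold WT libraries held 66.2, 57.7 and 107 CPM, and cold HIF2a AKO libraries 60.7, 58.5 and 56.6 CPM. The WT groups did not overlap, while TN HIF2a AKO replicate 2 lay within the cold range. It rose by a log2 fold change of 1.11 ± 0.29 in WT (adjusted p = 0.0232) and of 0.81 ± 0.21 on average (adjusted p = 0.00913). The value in HIF2a AKO mice was 0.50 ± 0.29 (adjusted p = 0.205), and the difference between the genotypes was -0.60 ± 0.41 on the log2 scale and did not pass the test. The WT call was lost without TN WT replicate 1, TN WT replicate 2 or cold WT replicate 3. Its opposite-strand neighbour Tmem198b was at a log2 fold change of -0.03. Mmp11 (stromelysin-3) rose by a log2 fold change of 0.32 ± 0.11 on average (adjusted p = 0.0293), from between 9.59 and 13.0 CPM in TN to between 11.7 and 18.5 CPM in cold, with overlapping ranges. Its exons overlap those of Chchd10 on the opposite strand, which rose by 2.95 on the log2 scale, and the Mmp11 call was lost without the 3 libraries with muscle or epithelial transcripts.

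Mmp3 (chr9:7445822-7455975), which degrades proteoglycans, fibronectin and several collagens and activates other MMPs, was the second MMP by level per kilobase. In TN it was at 105, 100 and 79.8 CPM in WT and at 84.0, 97.2 and 73.9 CPM in HIF2a AKO libraries. In cold it was at 68.5, 48.2 and 35.8 CPM in WT and at 39.3, 46.9 and 60.3 CPM in HIF2a AKO libraries. Every cold library lay below every TN library. The fall was 0.90 on the log2 scale in WT (SE 0.23, adjusted p = 0.0195) and 0.80 in HIF2a AKO mice (SE 0.23, adjusted p = 0.0272). On average the level in cold was 0.554 times that in TN. The call in HIF2a AKO mice was lost without the 3 libraries named above. Mmp23 fell by 0.50 on the log2 scale on average (SE 0.10, adjusted p = 0.00333), from between 24.5 and 33.1 CPM to between 18.0 and 24.9 CPM, with the ranges overlapping only through TN WT replicate 3 and cold WT replicate 2. Mmp2 decreased by 0.33 (SE 0.12, adjusted p = 0.0466), from between 240 and 374 CPM to between 232 and 285 CPM, and lost its call when any 1 of 9 of the 12 libraries was left out.

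Mmp8 (neutrophil collagenase) fell by 1.30 on the log2 scale (SE 0.41, adjusted p = 0.0227), from between 1.06 and 6.42 CPM in TN to between 1.01 and 2.51 CPM in cold. Neutrophil markers were also lower on average, with overlapping ranges. The summed level of S100a8, S100a9, Elane, Mpo, Csf3r and Cxcr2 was between 90.6 and 232 CPM in TN and between 61.2 and 115 CPM in cold. Of these 6, 3 fell on average, where 24% of all genes did. Within WT mice 0 of the 6 passed the test, and within HIF2a AKO mice 1 fell. The part of these markers in the Mmp8 result was not tested. The call was lost without TN WT replicate 1, cold WT replicate 3 or cold HIF2a AKO replicate 1. Mmp9 (gelatinase B), also made by neutrophils and macrophages, was at 31.4 to 76.5 CPM in TN and 26.8 to 47.9 CPM in cold, with a log2 fold change of -0.60 ± 0.23 that just missed the threshold (adjusted p = 0.0526). Macrophage markers summed to between 1332 and 2408 CPM in TN and between 1053 and 2054 CPM in cold. Mmp12 (macrophage elastase) varied most within groups, between 3.14 and 27.2 CPM in TN and between 0.885 and 36.8 CPM in cold, and its log2 fold change was 0.62 ± 0.70 (adjusted p = 0.475). Mmp14, the membrane-bound activator of proMMP2, was at 117 to 192 CPM in TN and 113 to 172 CPM in cold, with a log2 fold change of -0.20 ± 0.13 (adjusted p = 0.223).

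Mmp13, the main interstitial collagenase of rodents, passed the test in WT mice at very low counts. Its raw counts were 19, 15 and 17 in TN WT, 2, 6 and 3 in cold WT, 6, 5 and 11 in TN HIF2a AKO and 5, 13 and 13 in cold HIF2a AKO libraries. It fell by 1.72 on the log2 scale in WT (SE 0.47, adjusted p = 0.0267) and had a log2 fold change of 0.74 ± 0.45 in HIF2a AKO mice (adjusted p = 0.224). The WT groups did not overlap and the HIF2a AKO groups did. The interaction, 2.46 ± 0.65 on the log2 scale, ranked 11 among all genes by p but did not pass the adjustment over them. Averaged over genotypes the value was -0.49 ± 0.33 (adjusted p = 0.23). The 4 other tested MMPs without a call, Mmp15, Mmp17, Mmp25 and Mmp27, had average log2 fold changes between -0.50 and 0.26. Mmp15, a membrane-type MMP, stood at 59.2 CPM in TN WT replicate 3, the library with epithelial transcripts, and at 22.5 to 33.1 CPM in the other TN libraries. So along the chromosome 9 row Mmp3 and Mmp8 fell, Mmp27 and Mmp12 had intervals that spanned 0, and the AP-1 motif was shared by Mmp3 and Mmp13 only among the promoters shown.

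**Figure D2:**
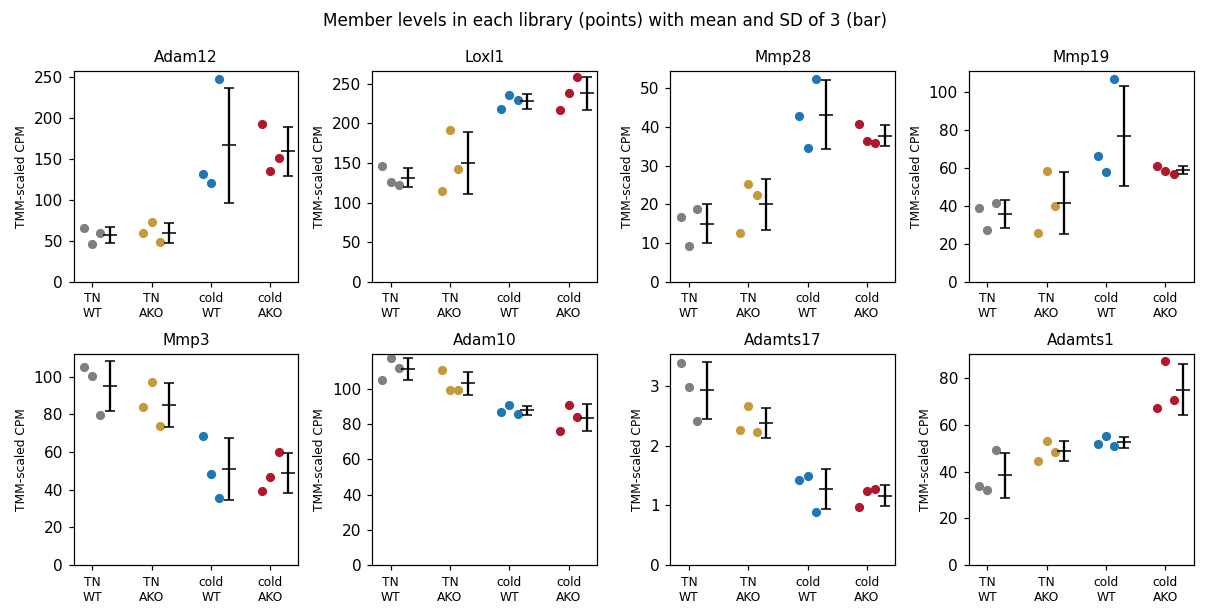
TMM-scaled CPM of 8 genes in each library (vertical axis from 0) by group, with points for libraries and bars for the mean and SD of 3. Cold libraries of Adam12, Loxl1 and Mmp28 all lie above the TN libraries, those of Mmp3, Adam10 and Adamts17 all lie below, and Adamts1 is highest in the 3 cold HIF2a AKO libraries.

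Among the 4 inhibitors, Timp4 alone passed the test in cold on average, against 48.8% of all genes in either direction. Timp4, the TIMP with the most restricted tissue range and a known product of adipose tissue, was at 20.7, 19.5 and 50.6 CPM in TN WT and at 22.8, 34.1 and 67.6 CPM in TN HIF2a AKO libraries. In cold it was at 90.6, 51.2 and 56.3 CPM in WT and at 61.7, 63.3 and 57.2 CPM in HIF2a AKO libraries. TN HIF2a AKO replicate 3 lay within the cold range. The average log2 fold change was 0.84 ± 0.30 (adjusted p = 0.0404), it passed in neither genotype alone, and the call was lost when any 1 of 9 of the 12 libraries was left out. The exons of Timp4 overlap those of Syn2 on the opposite strand, whose log2 fold change was 0.77.

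Timp2, the most abundant gene of the set, was at 403 to 601 CPM in TN and 345 to 511 CPM in cold, with a log2 fold change of -0.31 ± 0.13 (adjusted p = 0.0653). Timp3 was at 234 to 298 CPM in TN and 248 to 331 CPM in cold, with a log2 fold change of 0.16 ± 0.08 (adjusted p = 0.11). Timp1 stayed between 1.29 and 3.12 CPM in all libraries (log2 fold change -0.33 ± 0.23, adjusted p = 0.249). Within libraries, the log2 ratio of Timp2 to Timp3 was between 0.67 and 1.24 in TN and between 0.27 and 0.95 in cold. It fell by 0.48 on average, with p = 0.015 by a two-sided exact permutation of temperature within genotype and an adjusted p of 0.04 over the 16 ratios computed among Timp and Lox genes, where 0.005 is the smallest p possible. The other 5 Timp ratios had adjusted p-values between 0.0571 and 0.837 by the same exact permutation test.

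The crosslinking enzymes did not move together. Loxl1 (chr9:58287738-58313186, minus strand) was at 146, 127 and 123 CPM in TN WT and at 114, 192 and 143 CPM in TN HIF2a AKO libraries. Cold WT libraries held 218, 236 and 230 CPM, and cold HIF2a AKO libraries 217, 238 and 259 CPM. No TN library reached the lowest cold library. It rose by a log2 fold change of 0.79 ± 0.16 in WT (adjusted p = 0.00792) and 0.67 ± 0.16 in HIF2a AKO mice (adjusted p = 0.0144), or 1.66-fold on average. The HIF2a AKO call was lost without TN HIF2a AKO replicate 3, where the adjusted p was 0.0516, its highest value over the alternatives. Lox, the founding member that crosslinks fibrillar collagen, was at 30.8 to 58.0 CPM in TN and 51.3 to 68.7 CPM in cold. Its average log2 fold change was 0.44 ± 0.16 (adjusted p = 0.0423) and the call was lost when any 1 of 8 of the 12 libraries was left out. Loxl2, which acts on basement membrane collagen IV, went the other way, from between 56.4 and 78.3 CPM to between 47.4 and 56.7 CPM, and fell by 0.31 on the log2 scale (SE 0.09, adjusted p = 0.0199). The call for Loxl2 was lost without TN WT replicate 1 or cold HIF2a AKO replicate 1. Loxl3 and Loxl4 had log2 fold changes of -0.22 ± 0.10 (adjusted p = 0.0966) and -0.20 ± 0.17 (adjusted p = 0.355).

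Ratios within a library depend on its scaling only through the 0.1 CPM added before the log. They restate the levels above as a balance between genes and are not separate support for them. The log2 ratio of Loxl1 to Loxl2 was between 0.87 and 1.34 in the TN libraries and between 2.04 and 2.23 in the cold libraries, and rose by 1.08 in WT and 1.02 in HIF2a AKO mice. The ratio of Loxl1 to Loxl3 rose by 0.98 and that of Loxl1 to Loxl4 by 0.95 on average. None of these 3 ratios overlapped between TN and cold, and each had p = 0.005, the smallest value this exact permutation test can give, and an adjusted p of 0.0267. Lox rose against Loxl2 by 0.78 and against Loxl3 by 0.71 (adjusted p = 0.032 for each by the exact permutation test), with overlapping ranges. The rise of Lox against Loxl4, 0.68, did not pass (adjusted p = 0.0945 by the same exact permutation test). Lox against Loxl1 changed by -0.27 (exact permutation, adjusted p = 0.2), and the 3 ratios among Loxl2, Loxl3 and Loxl4 by between -0.09 and -0.03 (exact permutation, adjusted p between 0.737 and 0.865).

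**Figure D3:**
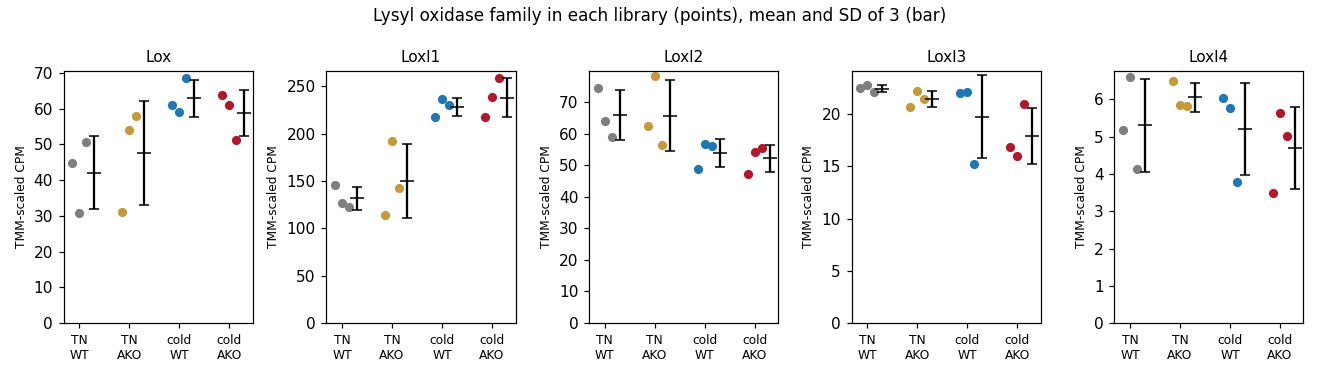
TMM-scaled CPM of Lox and Loxl1 to Loxl4 in each library (vertical axes from 0) by group, with points for libraries and bars for the mean and SD of 3. Loxl1 is at 114 to 192 CPM in TN and 217 to 259 CPM in cold, while Loxl2 lies lower in cold than in TN with a slight overlap.

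Of the 14 ADAM genes tested, 1 rose and 5 fell in cold on average, against 24.8% and 24% of all genes. Adam12 (chr7:133883199-134232146, minus strand), whose product sheds heparin-binding EGF-like growth factor and cleaves IGF-binding proteins and which is expressed by adipocyte progenitors and mesenchymal cells, had the largest rise of the set. It was at 65.5, 46.2 and 60.1 CPM in TN WT and at 59.0, 72.9 and 48.5 CPM in TN HIF2a AKO libraries. In the cold groups Adam12 reached 132, 120 and 248 CPM in WT and 192, 135 and 151 CPM in HIF2a AKO libraries. The lowest cold library thus lay well above the highest TN library. The log2 fold change was 1.54 ± 0.27 in WT (adjusted p = 0.00392) and 1.41 ± 0.27 in HIF2a AKO mice (adjusted p = 0.00509), or 2.78-fold on average. Adam12 kept its call in both genotypes under all 20 alternatives. Fibroblast and progenitor markers (Pdgfra, Dpp4, Pi16, Ly6a, Cd34 and Thy1) went the other way, summing to between 844 and 1033 CPM in TN and between 623 and 837 CPM in cold, with Pdgfra itself at a log2 fold change of -0.01.

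Adam10, the main sheddase of Notch receptors and many other surface proteins, fell in both genotypes. It was at 105, 118 and 112 CPM in TN WT and at 111, 99.3 and 99.7 CPM in TN HIF2a AKO libraries, and in cold at 87.0, 90.8 and 86.1 CPM in WT and at 76.0, 91.2 and 84.3 CPM in HIF2a AKO libraries. The ranges did not overlap. It decreased by 0.34 on the log2 scale in WT (SE 0.09, adjusted p = 0.0213) and by 0.30 in HIF2a AKO mice (SE 0.09, adjusted p = 0.0307), where the call was lost without the 3 libraries named above. Adam17, which releases TNF and EGF receptor ligands, was at 84.7 to 113 CPM in TN and 80.1 to 98.9 CPM in cold (log2 fold change -0.14 ± 0.08, adjusted p = 0.194). Adam33 fell by 0.49 in HIF2a AKO mice (SE 0.14, adjusted p = 0.0281) and was at -0.13 ± 0.14 in WT (adjusted p = 0.502), with an interaction of -0.36 ± 0.20 that did not pass the test. The Adam33 call within HIF2a AKO mice was lost when any 1 of 5 of the 12 libraries was left out, and this call and that on average were lost without the 3 libraries together.

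Adam11, Adam22 and Adam23, which lack protease activity and act as ligands or receptors for LGI proteins in nerves, all fell on average. Adam22 was at 7.50 to 9.53 CPM in TN and 5.91 to 7.07 CPM in cold, with no overlap, and fell by 0.32 on the log2 scale (SE 0.09, adjusted p = 0.0157). Adam23 fell by 0.27 (SE 0.09, adjusted p = 0.0235) and Adam11 by 0.50 (SE 0.17, adjusted p = 0.0334). Adam11 was at 23.5 CPM in TN HIF2a AKO replicate 2 and 18.1 CPM in cold HIF2a AKO replicate 1, both lowest in their group and both libraries with muscle transcripts, and its average call was kept without the 3 libraries, while that of Adam23 was lost. Among the abundant ADAMs without a call, Adam15 was at 128 to 197 CPM over all libraries (log2 fold change 0.10 ± 0.10) and Adam9 at 95.1 to 136 CPM (0.16 ± 0.08, adjusted p = 0.115). Adam19 was at -0.24 ± 0.09 (adjusted p = 0.0539). Adam3, Adam4 and Adam5, at most at 2.14 CPM in any library, had log2 fold changes between -0.81 and -0.32 and did not pass the test. Adam8, a leukocyte sheddase, ranged from 17.8 to 63.1 CPM within cold alone and had a log2 fold change of -0.21 ± 0.27 (adjusted p = 0.539).

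Of the 18 ADAMTS genes tested, Adamts1 and Adamts3 rose and Adamts6, Adamts14, Adamts16, Adamts17 and Adamts20 fell in cold on average. Of all genes, 24.8% rose and 24% fell, so the share of ADAMTS genes that fell was near the background. Adamts1, which cleaves aggrecan and versican, was at 33.9, 32.0 and 49.4 CPM in TN WT and at 44.7, 53.3 and 48.4 CPM in TN HIF2a AKO libraries. In cold it was at 51.6, 55.2 and 51.0 CPM in WT and at 67.3, 87.5 and 70.6 CPM in HIF2a AKO libraries. The 3 cold HIF2a AKO libraries were the highest of all 12. The log2 fold change in cold was 0.62 ± 0.16 in HIF2a AKO mice (adjusted p = 0.0174), 0.45 ± 0.16 in WT (adjusted p = 0.0633) and 0.54 ± 0.11 on average (adjusted p = 0.00339). The interaction, 0.17 ± 0.22, gave no difference between these responses beyond its error. The HIF2a AKO call was lost without TN HIF2a AKO replicate 1, TN HIF2a AKO replicate 3 or cold HIF2a AKO replicate 2.

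Adamts1 and Adamts5, both aggrecanases, are neighbours on chromosome 16, at chr16:85793827-85803113 and chr16:85856173-85901828 on the minus strand. Adamts5 was at 62.9 to 179 CPM in TN and 79.9 to 112 CPM in cold, with a log2 fold change of -0.42 ± 0.20 (adjusted p = 0.103), so the rise of Adamts1 was not matched by a called change of its neighbour. Adamts4, another aggrecanase, was at 4.17 to 8.76 CPM over all libraries (-0.13 ± 0.19, adjusted p = 0.571). Adamts9 had a log2 fold change of 0.42 ± 0.19 (adjusted p = 0.0851) and Adamts15 one of -0.19 ± 0.18 (adjusted p = 0.388). The abundant Adamts10 and the procollagen N-proteinase Adamts2 were at -0.30 ± 0.12 (adjusted p = 0.0556) and -0.19 ± 0.13 (adjusted p = 0.244). Adamts3 and Adamts14, the other procollagen N-proteinases, went in opposite directions. Adamts3 rose by 0.60 ± 0.22 (adjusted p = 0.0396), from between 1.10 and 2.10 CPM to between 1.45 and 3.25 CPM, and lost its call when any 1 of 10 of the 12 libraries was left out and without the 3 libraries together. Adamts14 fell by 0.38 (SE 0.11, adjusted p = 0.015), from between 14.4 and 17.0 CPM to between 9.97 and 14.8 CPM, kept that call with each single library left out, and lost it without the 3 libraries together. Within HIF2a AKO mice alone Adamts14 fell by 0.50 (adjusted p = 0.0354), a call that was also lost without the 3 libraries.

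Adamts17 and Adamts16 had the largest falls of the family, both at low levels. Adamts17, which acts on fibrillin microfibrils, was at 3.39, 2.98 and 2.42 CPM in TN WT and at 2.26, 2.67 and 2.23 CPM in TN HIF2a AKO libraries, and in cold at 1.43, 1.5 and 0.885 CPM in WT and at 0.968, 1.25 and 1.28 CPM in HIF2a AKO libraries. All cold values lay below all TN values. It fell by 1.21 on the log2 scale in WT (SE 0.24, adjusted p = 0.00696) and by 1.03 in HIF2a AKO mice (SE 0.24, adjusted p = 0.0132), and the level in cold averaged 0.461 times that in TN. The HIF2a AKO call was lost without cold HIF2a AKO replicate 1 and without the 3 libraries together. Adamts16 had raw counts of 28 to 89 in TN and 7 to 28 in cold, and fell by 1.73 in WT (SE 0.46, adjusted p = 0.0245) and by 1.46 on average (SE 0.32, adjusted p = 0.00464). Adamts6, a relative of Adamts10, fell by 0.51 (SE 0.17, adjusted p = 0.0288) and Adamts20 by 0.58 (SE 0.18, adjusted p = 0.0243), and the call of Adamts20 was lost without the 3 libraries. The remaining tested members, Adamts7, Adamts8, Adamts12, Adamts13 and Adamts18, had log2 fold changes between -0.80 and 0.28 and did not pass the test.

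**Figure D4:**
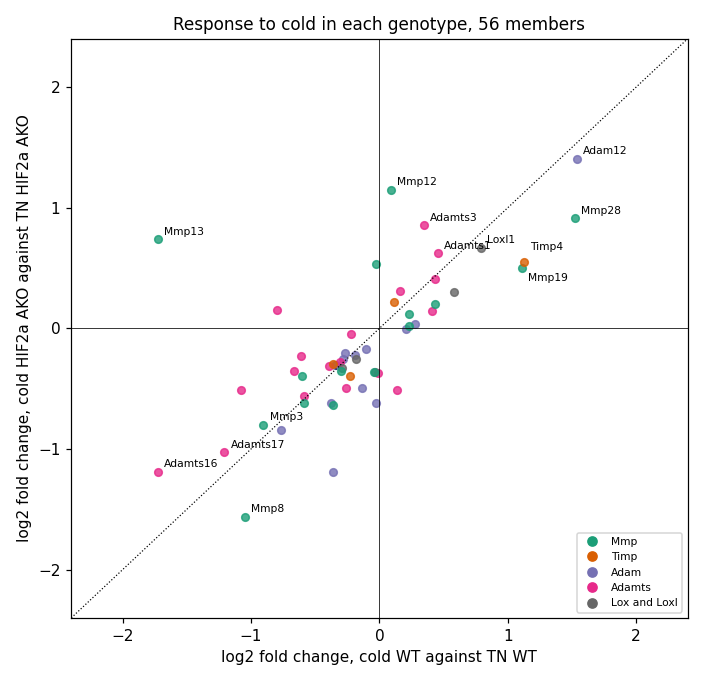
Log2 fold change of cold against TN in HIF2a AKO mice (vertical axis) against that in WT mice (horizontal axis) for the 56 genes tested, with families in colour and a dotted line of equal change. Adam12, Mmp28, Loxl1, Mmp3 and Adamts17 lie on the same side of 0 in both genotypes, and Mmp13, at 2 to 19 counts per library, lies farthest from the line.

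The comparison of genotypes asks whether the libraries labelled HIF2a AKO differed in these genes. In cold, 0 of the 56 genes passed the adjusted test in edgeR, against 0.00653% of all genes, and 0 also passed in DESeq2 and in voom. At an unadjusted p under 0.05 there were 2 of the 56 (2.95% of all genes) in edgeR, 2 in DESeq2 and 8 in voom. For DESeq2 and voom the share of all genes at this limit was not counted, so no excess can be read from them. The 2 in edgeR were Adamts1, higher by 0.51 ± 0.16 on the log2 scale, with a 95% interval of 0.17 to 0.86, and Mmp13, higher by 1.45 ± 0.49. The next by p were Mmp11 at -0.33 ± 0.15, Adam11 at -0.45 ± 0.24 and Adamts15 at -0.45 ± 0.25. For Mmp11 the values in cold were 18.5, 15.1 and 13.4 CPM in WT and 11.7, 12.0 and 13.6 CPM in HIF2a AKO libraries, which overlap. The median log2 difference over the 56 genes was -0.07, against -0.02 over all genes. For Adam12, Loxl1 and Mmp28 the difference was -0.06 ± 0.27, 0.06 ± 0.16 and -0.20 ± 0.28.

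At TN, 0 of the 56 genes passed the adjusted test in edgeR, against 0.00653% of all genes, and 0 in DESeq2 and voom. At an unadjusted p under 0.05 there was 1 of the 56 (2.91% of all genes) in edgeR. DESeq2 gave 1 and voom 8, again without a counted share of all genes. In edgeR this was Mmp13, lower in HIF2a AKO by 1.01 ± 0.43 on the log2 scale, opposite in sign to its difference in cold. Adamts1, next by p, was higher by 0.35 ± 0.16, and was followed by Adamts8 at -0.81 ± 0.41, Adam9 at 0.21 ± 0.11 and Adam23 at -0.22 ± 0.12. For the interaction of genotype and temperature 0 of the 56 genes passed in edgeR, DESeq2 or voom, against 0% of all genes in edgeR. At an unadjusted p under 0.05 there was 1 (2.14% of all genes) in edgeR. DESeq2 gave 1 and voom 4, with no share of all genes counted. After Mmp13 in edgeR came Adamts15 at -0.64 ± 0.35, Adam33 at -0.36 ± 0.20, Adamts8 at 0.95 ± 0.59 and Mmp28 at -0.62 ± 0.40. The median SE of an interaction over the 56 genes was 0.34 on the log2 scale. Differences of that size between the responses of the genotypes were not detectable with 3 libraries a group, and larger ones could also be missed. Mmp13, at 2.46 ± 0.65, did not pass the adjustment.

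The targets of these enzymes were read from lists of named genes. Of 18 matrix substrates tested, 0 rose and 12 fell in cold on average, against 24.8% and 24% of all genes, with a median log2 fold change of -0.38 against -0.05 over all genes. Their summed level was between 10991 and 13456 CPM in TN and between 7756 and 9364 CPM in cold. Among them, the collagen I chain Col1a1 fell by 1.11, Col3a1 by 0.90 and fibrillin-1 (Fbn1) by 0.71 on the log2 scale, while elastin (Eln), a substrate of LOXL1, was at 0.05 ± 0.08. Of 14 collagen-processing genes, the lysyl hydroxylase Plod1 (0.38) and the transglutaminase Tgm2 (0.55) rose and Bmp1, P4ha1 and Pcolce fell, by between 0.26 and 0.30, which are shares below those of all genes. Loxl1 thus rose in the same libraries in which the fibrillar collagens fell.

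Of 17 other inhibitors and activators tested, 4 rose and 1 fell, against 24.8% and 24% of all genes, so the share that rose was near the background. Among the rises were those of Bsg (an inducer of MMPs) at 0.94 and of Furin, which activates MMP and ADAM precursors, at 0.68 on the log2 scale. Pzp, a broad protease inhibitor of the alpha-2-macroglobulin type, also passed, but at no more than 0.0942 CPM in TN and between 0.134 and 0.775 CPM in cold, close to the level of 3 counts. Reck, a membrane-bound MMP inhibitor, fell by 0.28. Of 16 shed substrates and partners of ADAMs tested, Tnfrsf1a rose by 0.40, and the genes that fell included Dlk1, Tgfa, Tnf and Tnfrsf1b, by between 0.52 and 0.74. Of the 6 ADAMTS-like genes Adamtsl5 rose by 0.43 and Adamtsl1 fell by 0.43, and of 12 genes of the TGF-beta axis 0 rose and 5 fell, beside the same 24.8% and 24% of all genes. Between the genotypes in cold, none of these lists held a gene that passed the test. Lymphocyte markers moved with temperature as well, summing to between 810 and 1323 CPM in TN and between 460 and 807 CPM in cold, and the part of such shifts in cell makeup in the falls listed above was not tested.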

How the data were processed

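RNA-seq of iWAT gave 12 libraries in 4 groups of 3. The deposited values were whole read counts per gene without normalization. Per the labels and the submitters' processing notes, reads were trimmed with Trim Galore 0.4.4, aligned with STAR 2.6.1d to GRCm38 and counted with HTSeq 0.13.5, and the authors compared groups with DESeq2 1.30.0. The annotation and the strand setting are not given in the sources used here. Counts of overlapping or antisense genes, and of near-identical Adam copies, are therefore uncertain. The 12 tables of single samples were identical to the joint table.

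The fits used edgeR 4.0.16, with DESeq2 1.42.0 and limma 3.58.1 for alternatives, all under R 4.3.3. After filterByExpr (minimum count 10, minimum total 15) and TMM scaling (factors 0.829 to 1.20), 15306 genes were fitted by edgeR's quasi-likelihood model with 1 factor of 4 groups and no replicate block. P-values were adjusted by Benjamini-Hochberg over all genes, with a limit of 0.05, for 6 contrasts. Nothing states that libraries came from separate mice beyond their labels, so p-values measure the spread between libraries. Totals were between 22368316 and 35204631 counts. Ratios used log2(CPM + 0.1) and 400 permutations of temperature within genotype. Exon lengths and positions came from a GENCODE annotation of GRCm38 and promoters from RefSeq. In data simulated for cold WT against TN WT over 15204 genes, edgeR recovered 7 of 67 genes changed by 0.5, 43 of 67 changed by 1 and 57 of 65 changed by 2 on the log2 scale, with 7 of 114 calls false. In the real data 2389 genes rose and 870 fell in this contrast. With far fewer changed genes, the same limit of adjusted p was stricter in the simulation, so these shares do not give the recovery in the data. The genes and the lists were chosen with earlier results of these data known. Named are all members that passed in any contrast, the 5 with the smallest p in each contrast, the 3 with the highest mean level in each family and a fixed set of well-studied members. The neighbours and partners named beside them were chosen after their values were seen. Protein sequences were not used here. Some genes of the lists are not reported here.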

Additional observations from a re-analysis of the deposited data

How the results depend on the processing

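The alternatives were DESeq2 size factors, no filter on low counts, a mean count of at least 50, DESeq2, voom with sample quality weights, only the groups compared, a replicate block, an adjusted p under 0.1 and each library left out. A fit without TN WT replicate 3, TN HIF2a AKO replicate 2 and cold HIF2a AKO replicate 1 was chosen after seeing the data. The count of genes that changed in cold within WT was 9. It became 17 with voom, 17 at an adjusted p under 0.1 and 16 without the 3 libraries. With single libraries left out it was between 4 (without TN WT replicate 2) and 16 (without TN WT replicate 3). Over all genes 2389 rose and 870 fell in the main fit. Calls over all genes were 4684 with voom, 3651 without the 3 libraries, 1381 without TN WT replicate 2 and 3722 without TN WT replicate 3. Calls over all genes at 0.1 were not counted. Within HIF2a AKO the count of the genes described here was 10. It became 20 with voom and 5 without the 3 libraries. With single libraries left out it was between 3 (without TN HIF2a AKO replicate 1) and 14 (without TN WT replicate 3). Over all genes 2381 rose and 1757 fell in the main fit. The calls over all genes became 6140 with voom and 1834 without the 3 libraries. They were 1735 without TN HIF2a AKO replicate 1 and 4462 without TN WT replicate 3. Averaged over genotypes the count of the genes described here was 24, and 35 with voom. With single libraries left out it was between 16 (without cold HIF2a AKO replicate 1) and 29 (without TN WT replicate 3). Over all genes the main fit called 7467 and voom 8363. Without those single libraries 5867 and 7773 of all genes were called. Why the counts moved was not tested. The counts between genotypes and for the interaction stayed at 0 in every alternative. Replicate numbers were not taken as pairs. Of 18 pairs of libraries with equal numbers, 5 had correlated deviations above 0.1, with correlations between -0.43 and 0.39. Pairs with unequal numbers were not compared, so pairing is not excluded. With the replicate block the counts were 9, 8 and 21 for cold in WT, in HIF2a AKO and on average. Over all genes they were then 2561, 3313 and 6729. Of the 24 genes called on average, Adam10, Adam12, Adam22, Adamts1, Adamts16, Adamts17, Loxl1, Mmp3, Mmp19, Mmp23 and Mmp28 kept their call in all alternatives that tested them, and no called gene reversed its direction. In WT, the calls of Mmp3 and Mmp13 were lost without TN WT replicate 1 or 2 or cold WT replicate 3, that of Mmp13 also without cold WT replicate 1, that of Adam10 without TN WT replicate 2 or cold WT replicate 1 or 3, and that of Adamts16 without any 1 of 5 libraries. In HIF2a AKO, those of Mmp3 and Adam10 were each lost without any 1 of 4 libraries, that of Mmp23 without either replicate 1, that of Adamts17 without cold replicate 1 and that of Adamts14 without any 1 of 6. On average, Adamts6 and Adam33 lost theirs without any 1 of 4 libraries, Adam23 and Adamts20 without any 1 of 3, Mmp11 without any 1 of 5 and Adam11 without any 1 of 8. At this depth, changes of members near the floor, such as Mmp13, rest on few counts.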
